A study of Mus musculus and Rattus norvegicus with 24 samples.

Results

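Nppa, Nppb and Ankrd1 are 3 genes of the heart muscle cell that respond to mechanical load, taken here as the 3 rows of those names among the 9595 genes of a count table of single cells. Nppa and Nppb encode atrial and brain natriuretic peptide, hormones that cardiomyocytes release. Ankrd1 encodes an ankyrin repeat protein, also called CARP, of the sarcomere and the nucleus. All 3 were looked up in all 24 cells, to see which cells carried them and whether they went together.

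The study set stem cell-derived cardiomyocytes that had been kept in a newborn heart beside those left in a dish and beside natural adult ones, with 8 cells in each of 3 groups. The 8 transplanted cells came from a mouse embryonic stem cell line with the reporters Isl1-Cre, Rosa-RFP and aMHC-GFP, in which a cardiac myosin promoter (aMHC, the gene Myh6) drives the green protein, and were injected into neonatal rat hearts and isolated after 30 days in vivo. The 8 cultured cells came from a line of the same genotype and spent 30 days in vitro. The 8 adult cells were wild-type (WT) cardiomyocytes from the ventricles of adult rats. So the transplanted cells were mouse cells out of a rat host, and the adult cells differed from the other 2 groups in species as well as in origin, effects that cannot be told apart here. The mouse build is named for the rat cells too, and whether rat reads were read against the mouse genome is not given in the sources used here. How that would change adult levels cannot be told apart from the other differences, and it bears on every adult value below, those per exon length of the mouse genes included. The labels name no animal and no culture, so each group counts as 1 sample and no group could be tested against another. The intervals below cover counting error only. Letters A to H name cells within a group and pair nothing.

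In the heart, natriuretic peptides are made as prohormones, cut by the protease Corin among others, and act on the receptor Npr1, which makes cyclic GMP and so activates the kinase Prkg1 (PKG), while Npr3 clears them. Nppa is abundant in the fetal ventricle, recedes there after birth and stays high in the atria, and both peptide genes rise again in a stretched or failing ventricle. Ankrd1 binds the elastic I-band part of titin, the spring of the sarcomere, and is a classic gene of the stretch response.

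Totals over the listed genes were 88796 to 344224 counts in transplanted, 16099 to 60789 in cultured and 108546 to 223744 in adult cells. The ribosomal RNA precursor Rn45s took a median of 1.20%, 7.02% and 1.23% of counts per cell in these groups. The list of general cardiomyocyte markers took 11.8 to 15.9% of counts in each transplanted and 11.99 to 15.6% in each adult cell, but 0 to 16.7% in cultured cells, where cells G and H had none of these markers and cell F took 0.319%. The ventricular list took 5.43 to 10.1%, 0 to 0.586% and 5.46 to 9.50% of counts. The atrial list, 7 genes of which 6 are in the table, had 0 counts in transplanted cells, 423 in cultured and 11 in adult ones, with its defining gene Myl7 at 0 in transplanted and adult cells. Endothelial markers gave 218 counts in 3 transplanted cells, 217 of them Fabp4, with Egfl7 and, named with their values in view, Cdh5 and Kdr at 0. Fibroblast markers took 0.000307%, 0.0868% and 0.00692% of counts in transplanted, cultured and adult cells, smooth muscle and pericyte markers 0.000844%, 0.00970% and 0.000236%, and macrophage and leukocyte markers 0%, 0.0131% and 0%. Of these lists, 9 of 11 fibroblast, 5 of 10 endothelial, 5 of 7 smooth muscle and pericyte and 3 of 10 macrophage and leukocyte markers are in the table. The other markers could not be seen, so low shares do not show that such cells were absent. The part of depth, RNA makeup and cell identity in the low cultured values below was not tested.

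In the mouse genome (build mm10, annotation GENCODE M21), Nppb and Nppa are neighbours on chromosome 4 and are read in the same direction. Nppb spans chr4:147985788-147987205 and Nppa chr4:148000722-148002079, with 13516 bases between them. Each has 3 exons, with a summed exon length of 781 bases for Nppb and 865 bases for Nppa. Ankrd1 lies on chromosome 19 on the minus strand, at chr19:36111961-36120099, with 2886 bases in the union of the exons of its 6 annotated transcripts.

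The 250 bases before the RefSeq start site of each mouse gene (RefSeq, GRCm38.p6) are shown because 2 of the genes shared their absence from cultured cells and the third had none anywhere. Capitals mark GATAA, the core of GATA factor motifs (printed TTATC where it reads on the other strand), GGAATG, a core of the M-CAT motif of TEAD factors, and TATAA, the core promoter box.
Nppa, chr4:148000472-148000721, plus strand: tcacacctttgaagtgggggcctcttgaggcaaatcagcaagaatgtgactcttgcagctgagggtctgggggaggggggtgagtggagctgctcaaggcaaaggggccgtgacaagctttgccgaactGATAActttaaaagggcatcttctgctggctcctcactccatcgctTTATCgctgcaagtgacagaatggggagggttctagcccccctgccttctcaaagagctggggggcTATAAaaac
Nppb, chr4:147985650-147985899, plus strand: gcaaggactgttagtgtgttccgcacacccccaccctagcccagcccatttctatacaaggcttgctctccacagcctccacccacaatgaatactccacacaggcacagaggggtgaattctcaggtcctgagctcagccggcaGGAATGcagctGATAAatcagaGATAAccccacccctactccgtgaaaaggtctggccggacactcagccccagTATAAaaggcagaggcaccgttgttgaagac
Ankrd1, chr19:36119845-36120094, minus strand: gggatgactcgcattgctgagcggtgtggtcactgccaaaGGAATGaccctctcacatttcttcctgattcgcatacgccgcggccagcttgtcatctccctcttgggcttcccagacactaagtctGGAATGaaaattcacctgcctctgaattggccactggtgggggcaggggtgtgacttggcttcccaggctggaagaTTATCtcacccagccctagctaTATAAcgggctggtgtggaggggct
The GENCODE model of Nppb begins 112 bases further upstream than the RefSeq start and that of Ankrd1 255 bases, so part of the Nppb window and all of the Ankrd1 window lie inside the genes in that annotation. Nppb held GGAATG once, 105 bases before the start, and GATAA 2 times, at 94 and 83 bases. Ankrd1 held GGAATG 2 times, at 210 and 123 bases, and GATAA 1 time, on the other strand, at 47 bases. Nppa held GATAA 2 times, at 121 and 75 bases, and no GGAATG. Of 32851 mouse promoter windows of this length, 22.6% held GATAA, 12.6% GGAATG, 22.8% TATAA, 2.73% both GATAA and GGAATG, and 0.886% all 3. Nppb and Ankrd1 each held all 3. AAGTG, a core of Nkx2-5 type motifs, stood 2 times in Nppa and in neither other gene, against 40.7% of windows. CANNTG, the E box, stood in all 3 genes and in 66.2% of windows, and overlapped a GATAA by 1 base in Nppb and an AAGTG in Nppa. Both strands were searched. These are matches of letters in the mouse sequence, and no binding was measured. The rat promoters were not analysed here.

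**Figure D1:**
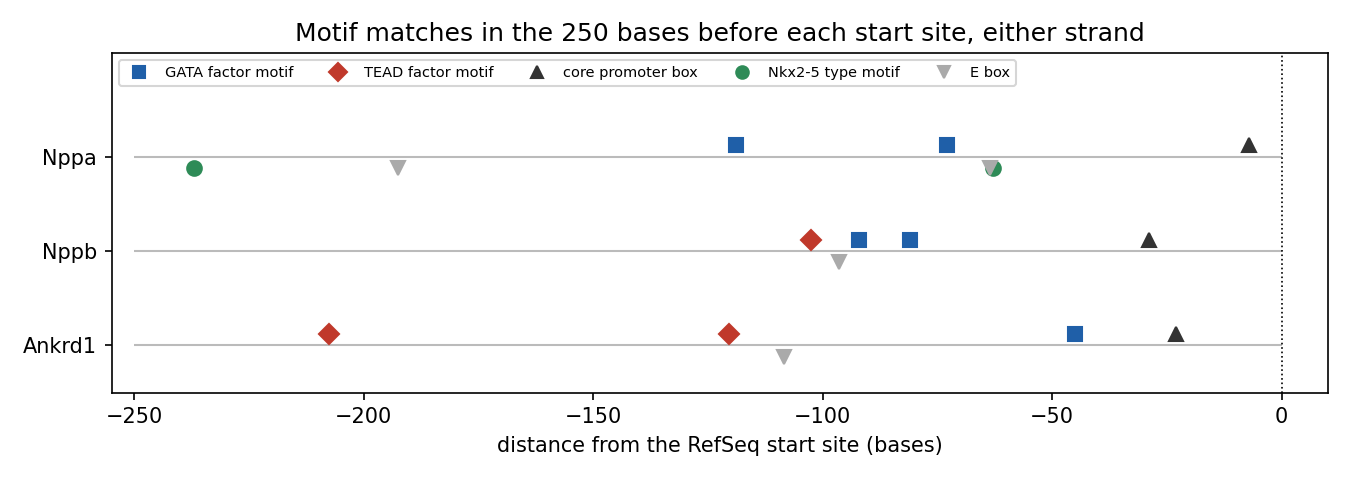
Position of each motif match before the RefSeq start of the mouse genes Nppa, Nppb and Ankrd1, in bases from the start (x axis, start at 0). Squares are GATAA, diamonds GGAATG, triangles pointing up TATAA, circles AAGTG and grey triangles pointing down the E box, and diamonds appear for Nppb (1) and Ankrd1 (2) and not for Nppa.

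Nppa was at 0 counts in all 24 cells. Levels are given in CPM, counts scaled to a total of 1000000. In the summed transplanted cells 3 counts would have made a level of 2.30 CPM, the floor used here for a count of 0, whose counting interval reached 2.83 CPM. The same floor was 2.36 CPM for the adult and 14.6 CPM for the cultured sum. In single cells it ran from 8.72 to 33.8 CPM (transplanted), from 49.4 to 186 CPM (cultured) and from 13.4 to 27.6 CPM (adult). Nppa was 1 of 692 listed genes (7.21% of 9595) with no count in any cell. Its exons are overlapped over 532 of 865 bases (61.5%) by Gm13054, an antisense gene that is not among the 9595, and whether reads were counted by strand is not given in the sources used here. An overlap of at least 50% of the exon length was found for 30 of 684 genes without any count (4.39%) and for 172 of 8840 with counts (1.95%). The part of this overlap in the 0 of Nppa was not tested. Nppb and Ankrd1 have no such overlap.

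Nppb was found in transplanted and adult cells and in no cultured cell. In transplanted cells A to H it had 1, 0, 0, 0, 0, 276, 41 and 355 counts. This left 3 cells with 10 or more counts, F, G and H, 1 cell with a lone count and 4 cells with none. Counts in 4 or fewer of the 8 cells were the rule in this group, found for 83.4% of the 2266 genes with at least 10 counts in it. The 4 carriers of Nppb had levels of 7.04 CPM in A, 1824 CPM in F (1615 to 2052), 409 CPM in G (294 to 555) and 1031 CPM in H (927 to 1144). Cells H and F together held 93.8% of all Nppb counts of the group. The 4 transplanted cells at 0 had floors of 15.3 to 33.8 CPM, so a level such as that of cell A could not have been told from 0 in them, and one such as that of G could.

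In adult cells A to H, Nppb had 1, 145, 18, 109, 249, 14, 7 and 10 counts. All 8 cells carried it, as they did for 5.7% of the 2581 genes with at least 10 counts in adult cells. The levels were 4.47, 1227, 125, 709.7, 1777, 129, 40.7 and 47.3 CPM. The highest cell, E, stood 398-fold above the lowest, A, a fold that rests on the 1 count of A, under the floor of 3 counts. The ranges of the groups overlapped at the top, where transplanted F and adult E were within each other's counting intervals (1563 to 2012 CPM for E). At the bottom no adult cell was at 0, but adult A, with its 1 count, was under its floor of 13.4 CPM. So it could not be told from the transplanted cells at 0. The median stood at 3.52 CPM among transplanted cells, midway between 0 and the lone count of transplanted A, and at 127 CPM among adult cells.

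Summed over its 8 cells, Nppb was at 517 CPM (478 to 557) in transplanted and at 435 CPM (399 to 473) in adult cells. In cultured cells it was at 0, with a floor of 14.6 CPM and a counting interval up to 17.9 CPM. Set against that floor, Nppb was at least 35.5-fold higher in transplanted than in cultured cells, or at least 22.8-fold without transplanted cell H. Against cultured cells, the adult sum was at least 29.9-fold higher, or at least 18.5-fold without adult cell E. The adult to transplanted ratio was 0.842 (0.751 to 0.944), which turned to 1.26 without transplanted cell F, 1.31 without H, 1.02 without adult cell A and 1.24 when each cell had equal weight. So these data give no stable order of the transplanted and the adult level of Nppb.

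Ankrd1 was likewise found in transplanted and adult cells and in no cultured cell, but in a different set of transplanted cells, which shared A and G with that of Nppb. Cells A to H of the transplanted group had 43, 211, 0, 13, 0, 0, 44 and 0 counts. The 4 cells with counts all had more than 10, at 303 CPM (219 to 408) in A, 1699 CPM (1477 to 1944) in B, 83.1 CPM (44.3 to 142) in D and 439 CPM (319 to 590) in G. Cell B alone held 67.8% of the counts of the group. The 4 cells at 0 included F and H, the cells richest in Nppb.

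The 8 adult cells had 1, 137, 30, 429, 55, 59, 111 and 16 counts of Ankrd1, again without a cell at 0. Their levels were 4.47, 1159, 208, 2793, 392.5, 544, 646 and 75.7 CPM, with cell D highest and cell A lowest, 625-fold apart. That fold rests on the 1 count of A, under the floor of 3 counts. Transplanted B lay between adult B and adult D, so the ranges overlapped. The median cell stood at 41.6 CPM in transplanted and at 468 CPM in adult cells.

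As a sum, Ankrd1 stood at 239 CPM (213 to 267) in transplanted, 0 in cultured and 659 CPM (615 to 705) in adult cells. It was at least 16.4-fold higher in transplanted than in cultured cells, a bound that fell to 5.83 without transplanted cell B. The adult sum was at least 45.3-fold above cultured cells, or at least 25.1-fold without adult cell D. Against transplanted cells the adult level was 2.76-fold higher (2.42 to 3.15), with the limit on rat reads given above. That ratio was 1.53 without adult cell D and 7.77 without transplanted cell B, and was above 1 with each other cell left out in turn.

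**Figure D2:**
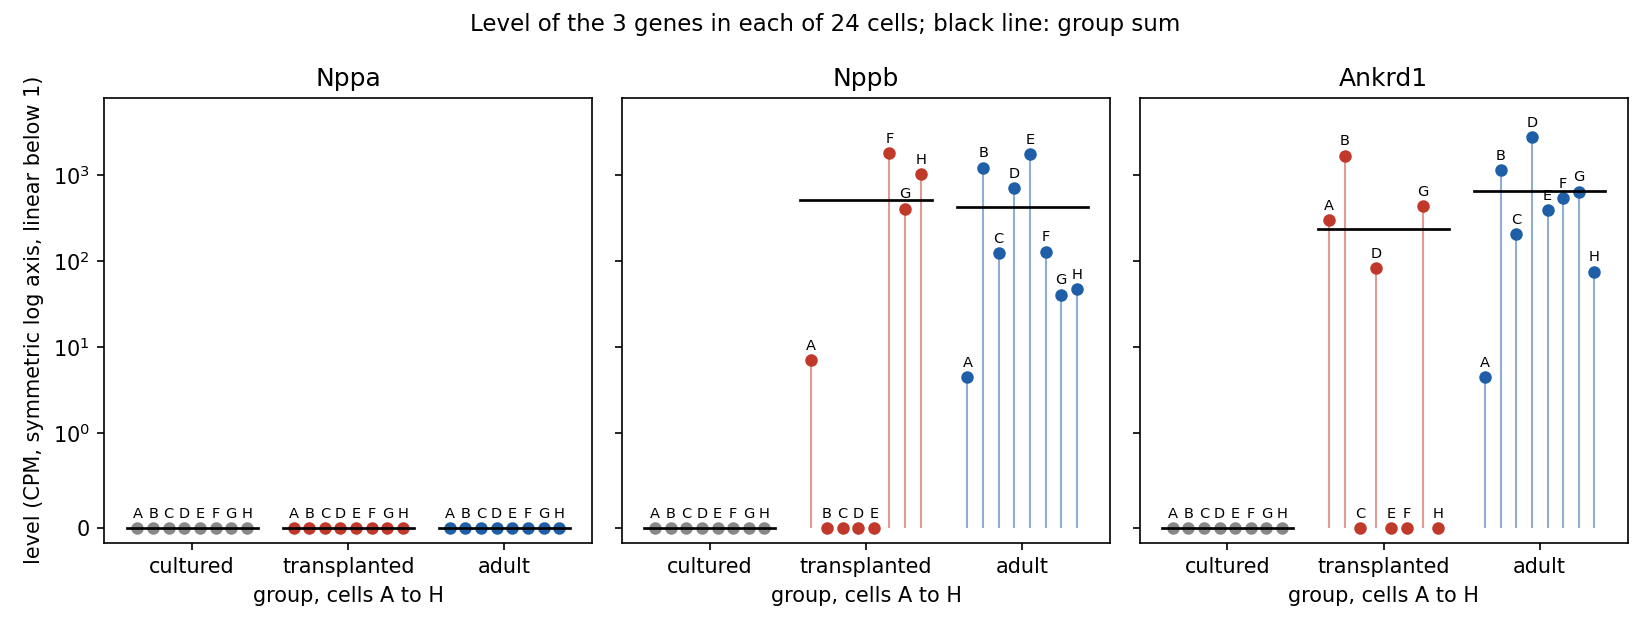
Level of Nppa, Nppb and Ankrd1 in each of 24 cells, in CPM on a symmetric log axis that is linear below 1, with cells A to H of the cultured, transplanted and adult groups. Points are cells and black lines the level of the 8 cells summed. Nppa is at 0 in all 24 cells, Nppb and Ankrd1 are at 0 in all 8 cultured cells, at 0 in 4 transplanted cells each, and above 0 in all 8 adult cells.

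These 2 genes can be set against all others. Of 4958 genes with at least 10 counts over transplanted and cultured cells, 22.5% were at least 2-fold higher in transplanted cells and 64.0% at least 2-fold lower, and Nppb and Ankrd1 were among the former. Of 5132 genes measured in adult and cultured cells, 23.0% were at least 2-fold higher in adult cells and 62.1% lower, again with both genes among the higher ones. Between adult and transplanted cells 44.3% of 3501 genes were at least 2-fold higher in adult cells and 34.8% lower. Ankrd1 was among the higher ones and Nppb in neither class. A 0 in every cultured cell was found for 315 of the 1385 genes with at least 10 counts in each of the other groups (22.7%), so Nppb and Ankrd1 shared that pattern with many genes.

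To compare levels between genes, CPM was divided by exon length in kilobases. On that scale Nppb was at 661 (612 to 713) and Ankrd1 at 82.7 (73.8 to 92.4) in the transplanted sum, and at 557 (511 to 605) and 228 (213 to 244) in the adult sum. Nppb was therefore the higher of the pair per length in both sums, of which the transplanted one held 93.8% of its Nppb counts in cells H and F. Within cells the order varied. In adult cells A to H the ratio of Nppb to Ankrd1 per length was 3.70, 3.91, 2.22, 0.939, 16.7, 0.877, 0.233 and 2.31, and the ratio in A rests on 1 count of each gene. In the 2 transplanted cells with both genes it was 0.0859 in A and 3.44 in G. Transplanted F and H had Nppb without Ankrd1, and B and D had Ankrd1 without Nppb.

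Cells with both genes were then counted. With a cell counted as a carrier from 1 count, transplanted cells A and G had both genes, F and H Nppb without Ankrd1, B and D Ankrd1 without Nppb, and C and E neither, an even split with no excess of cells with both. From 3 counts on, G was the 1 cell with both. All 8 adult cells carried both genes, which follows from each gene being in every adult cell, and 7 of 8 did from 3 counts on, with cell A as the exception. From 10 counts on, 6 adult cells had both, G had Ankrd1 without Nppb, and A had neither. No cultured cell had either.

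The cells differed in depth, so the number of carriers was also computed for an equal number of counts per cell. For each gene alone, the depth of 16099 counts was planned. The depth of 88796 counts and the numbers of cells with both genes were added after the totals had been seen. At 88796 counts, the depth of the shallowest transplanted cell, 3.63 transplanted and 7.39 adult cells would be expected to show Nppb, and 4.0 and 7.40 to show Ankrd1. At 16099 counts, the depth of the shallowest cultured cell, the expected numbers were 3.11 and 5.89 for Nppb and 3.75 and 6.76 for Ankrd1. These numbers describe transplanted and adult cells only. Cells with both genes would number 1.11 of the transplanted and 5.65 of the adult cells at 16099 counts.

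The Spearman correlation of the Nppb and Ankrd1 levels was -0.20 over the 8 transplanted cells, with -0.38 without cell C and 0.020 without F or without H as its extremes. Over the 8 adult cells it was 0.55, from 0.32 without cell A to 0.75 without cell E or G. These values describe cells that share 1 sample each and a depth that varies with them. In the adult cells the level of Nppb ran against the total count, with a correlation of -0.76, and that of Ankrd1 with -0.50. The value over all 24 cells, 0.53, contains the 8 cultured cells at 0 for both genes. Beside other genes, Ankrd1 ranked 500 of 723 in likeness to Nppb over the transplanted cells and 65 of 921 over the adult cells, where 10% of genes had a correlation above 0.51 and 0.49.

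**Figure D3:**
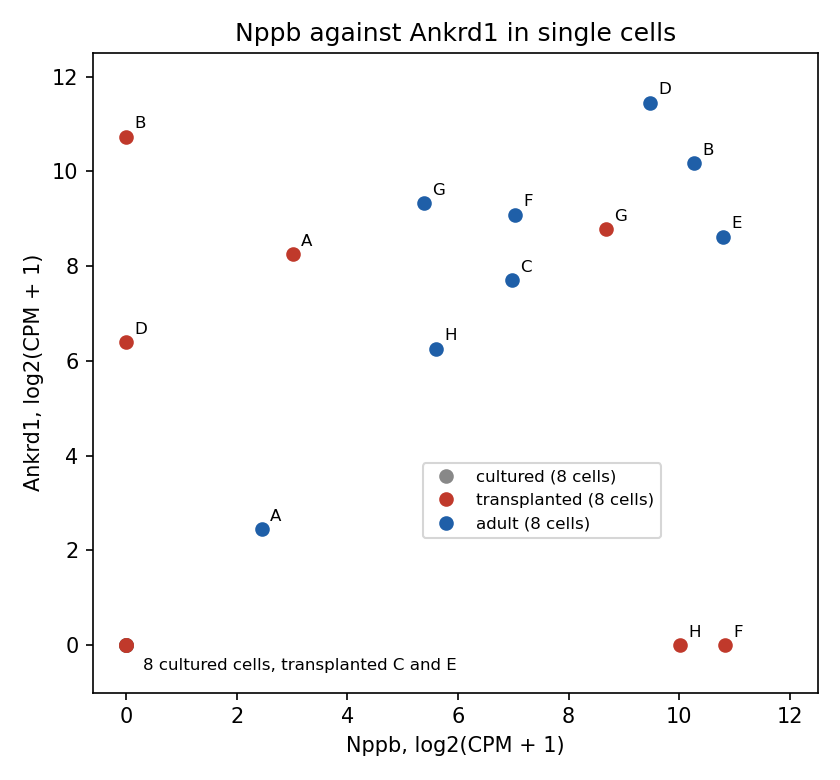
Level of Nppb (x axis) against that of Ankrd1 (y axis) in each cell, both as log2(CPM + 1). Transplanted F and H lie on the x axis and B and D on the y axis, all adult cells lie off both axes, and the 8 cultured cells and transplanted C and E share the origin.

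The number of genes detected in a cell went with Ankrd1 among the transplanted cells. Cells A to H had 988, 1427, 553, 846, 583, 662, 1072 and 612 genes with at least 1 count. The 4 carriers of Ankrd1, A, B, D and G, were the 4 cells with the most genes detected. The Spearman correlation between the Ankrd1 level and the number of genes was 0.94, and 0.91 to 0.96 without 1 cell. For Nppb the value was 0.076, and its 2 richest cells, F and H, were among the 4 with the fewest genes. In adult cells, with 635 to 1701 genes, the correlation was -0.048 for Ankrd1 and 0.024 for Nppb, and cell D, richest in Ankrd1, had the fewest genes. Among 140 genes with at least 10 counts that were found in exactly 4 transplanted cells, A, B, D and G was the most frequent of 52 sets of cells, with 13 genes (9.29%), Ankrd1 included. The set of Nppb, A, F, G and H, had 2 genes (1.43%), and the median set had 2. The part of detection per cell in the Ankrd1 pattern was not tested.

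**Figure D4:**
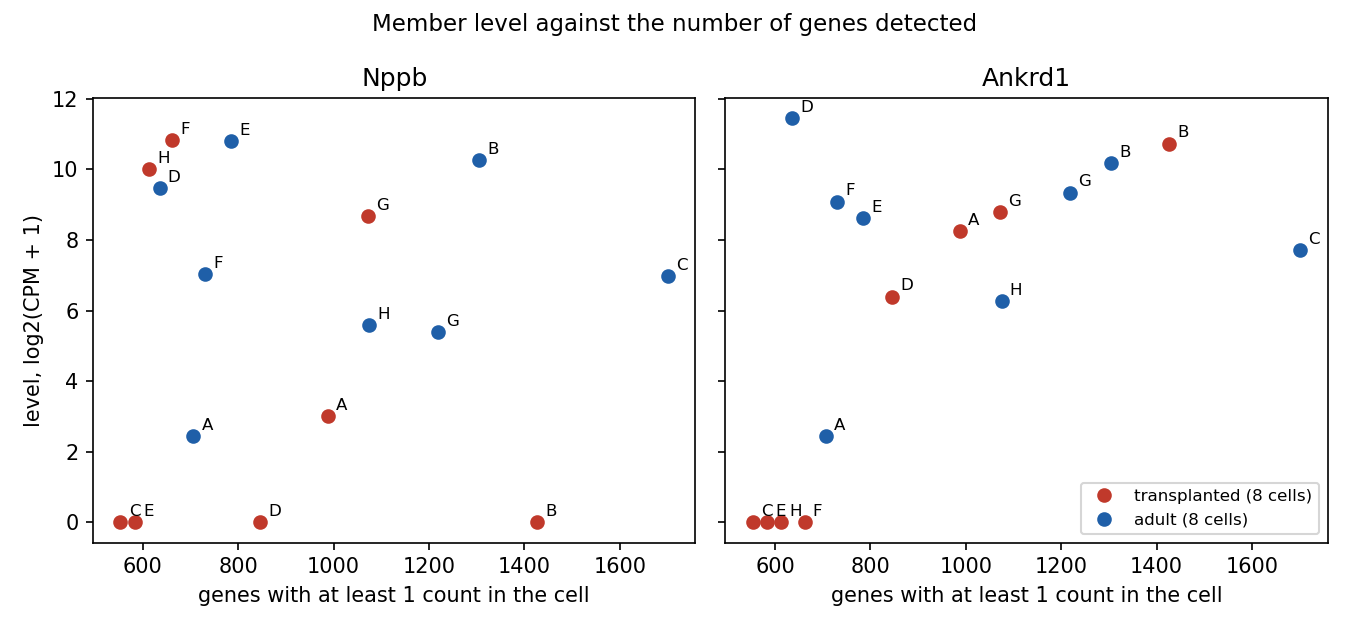
Level of Nppb (left) and Ankrd1 (right), as log2(CPM + 1), against the number of genes with at least 1 count in each transplanted and adult cell. In the right panel the 4 transplanted cells with Ankrd1 are those with 846 to 1427 genes, and the 4 without it have 553 to 662.

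Genes of like level give a measure of how patchy detection was. Of 338 genes within 2-fold of the transplanted level of Nppb, the median gene was found in 4 cells, and 60.4% in 4 or more. Of 596 genes within 2-fold of that of Ankrd1, the median gene was found in 2 cells, and 30.7% in 4 or more. Counts in all 8 adult cells, which both genes had, were found for 4.0% of 450 genes within 2-fold of the adult level of Nppb and for 9.0% of 289 genes near that of Ankrd1.

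The genes most like Nppb over the 8 transplanted cells were Sepw1, a selenoprotein (Spearman correlation 0.96), Tuba8, an alpha tubulin (0.94), S100a1, a calcium-binding protein of heart muscle (0.91), Gpi1, an enzyme of glycolysis (0.91), and Txn1, thioredoxin (0.87). Sepw1 had 79, 0, 44, 0, 0, 152, 60 and 279 counts in cells A to H, with its highest levels in F and H, the cells richest in Nppb. Its level was 599 CPM in G, but also 556 CPM in A, with 1 count of Nppb, and 496 CPM in C, with 0. Tuba8 had 215, 29, 0, 0, 0, 411, 150 and 836. Over the adult cells the list was Gpi1 (0.85), Ddt (0.85), Gbas (0.81), Stk16 (0.79) and Ndufb11, a subunit of respiratory complex I (0.79). Gpi1 was in both lists. Over all 24 cells it was S100a1 (0.85), Tuba8 (0.76), Tnnc1, cardiac troponin C (0.75), Ndufa2 of complex I (0.75) and Hacd1 (0.74).

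For Ankrd1 over the transplanted cells the list was led by Rrad, a small GTPase that restrains calcium channels, with a correlation of 1.0. Rrad had 59 counts in B and 1 each in A, D and G. Next came Tcap, the titin cap protein of the Z-disc (0.97), Eif2b5, a translation initiation factor subunit (0.95), Pdlim5, a Z-disc protein (0.94), and Hspa5, a chaperone of the endoplasmic reticulum (0.94). Tcap had 70, 83, 0, 28, 0, 0, 49 and 0 counts, the same 4 cells as Ankrd1 and the same order of levels but for A and G. Those 4 cells were also the ones with the most genes detected. Over the adult cells it was Mrpl30 (0.90), Atf6 (0.85), Adipor1 (0.85), Vcp (0.84) and Hacd1 (0.83), none of them on the transplanted list. Adult Tcap did not follow Ankrd1 in this way, since adult cell A, with 1 count of Ankrd1, had 432 counts of Tcap and cell D, with 429 of Ankrd1, had 0. Over all 24 cells Lrtm1 (0.88), Cd36, a fatty acid transporter (0.82), Cox8b (0.80), Mpc1, a mitochondrial pyruvate carrier subunit (0.80), and Gm12338 (0.79) led.

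Partners of Ankrd1 in stretch sensing at titin and the Z-disc formed a list of 16 genes, 14 of them in the table. Of 12 measured between transplanted and cultured cells, 8 were at least 2-fold higher in transplanted cells and 3 lower, beside 22.5% and 64.0% of all genes. The median log2 ratio of the list was 3.55, or 2.27 with genes at 0 set to the floor of 3 counts. Over all measured genes it was -5.63. Csrp3, the muscle LIM protein, was at 4660 CPM in transplanted, 97.0 in cultured and 5536 in adult cells, found in 8, 2 and 8 cells. Fhl2, another LIM protein of the sarcomere, was at 2881, 72.8 and 1513 CPM. Titin itself, Ttn, went the other way, at 2131, 45112 and 4057 CPM, with cultured cells F, G and H at 0. Tcap was at 177, 0 and 483 CPM. Between adult and cultured cells 7 of 12 genes were higher and 2 lower, beside 23.0% and 62.1% of all genes. The median was 3.44 against -3.85. Between adult and transplanted cells 4 of 13 were higher and 2 lower, beside 44.3% and 34.8% of all genes. The median was 0.50 against 0.37. Csrp3, Fhl2 and Ttn had counts in every transplanted and adult cell, though transplanted C had only 2 of Fhl2, under the floor of 3 counts. Tcap is named for its likeness to Ankrd1 over the 8 transplanted cells, so its pattern in them is not a separate observation. In the transplanted cells without Ankrd1 (C, E, F and H), it was at 0. The listed gene Trim63, named with its values in view, had counts there in E alone. So presence of the partners in those cells differed from gene to gene.

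**Figure D5:**
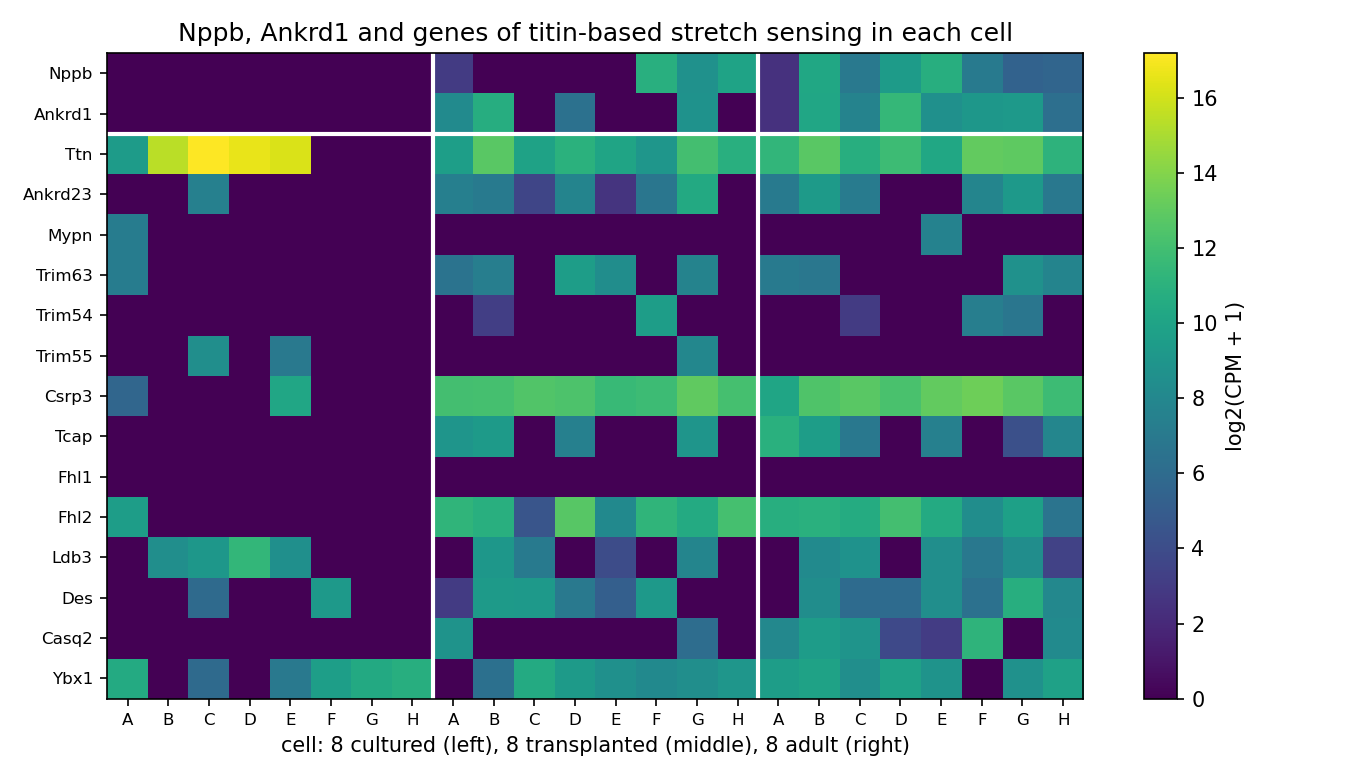
Level of Nppb, Ankrd1 and the 14 listed stretch-sensing genes in each cell, colour scale log2(CPM + 1), with cultured cells at the left, transplanted in the middle and adult at the right. Csrp3 and Fhl2 are above 0 in every transplanted and adult cell, and Ttn is highest in cultured cells B to E. Tcap, a gene named for its likeness to Ankrd1, follows the cells of Ankrd1 in the transplanted group.

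The genes that process and sense natriuretic peptides gave few counts. Of 14 listed genes 10 are in the table, and none had a count in any transplanted cell. Corin and Pde5a, chosen after their values were seen and the latter an enzyme that breaks down cyclic GMP, were at 0 in all 24 cells, as Nppa was. Prkg1 had 32 counts in 3 cultured cells (155 CPM) and 0 elsewhere, and Npr1 had 14 counts in cultured cell B (67.9 CPM) and 0 elsewhere. Npr3 had 54 counts in adult cell B (42.5 CPM over the group), 3 in cultured cell F and 0 in transplanted cells. Of 2 members measured between transplanted and cultured cells both were lower, as were 64.0% of all genes, with a median log2 ratio of -6.70 (-5.48 with genes at 0 set to the floor) against -5.63 over all genes. Of 4 between adult and cultured cells 1 was higher and 2 lower, beside 23.0% and 62.1% of all genes, with a median of -2.31 against -3.85. Of 2 between adult and transplanted cells both were higher, as were 44.3% of all genes, with a median of 4.79 (3.52 with the floor) against 0.37.

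Other genes of hypertrophy and the fetal heart were found on both sides. Of 12 measured between transplanted and cultured cells 4 were at least 2-fold higher and 6 lower, beside 22.5% higher and 64.0% lower over all genes. Their median was 1.08, or -0.65 with genes at 0 set to the floor, against -5.63 over all genes. Between adult and cultured cells 6 of 11 were higher and 3 lower, beside 23.0% and 62.1% of all genes. The median was 1.53 against -3.85. Between adult and transplanted cells 6 of 11 were higher and 2 lower, beside 44.3% and 34.8% of all genes. The median was 2.37 against 0.37 over all genes. Actc1, cardiac actin, was at 22490 CPM in transplanted, 902 in cultured and 15223 in adult cells. Myh6, the adult mouse ventricular myosin, was at 1094, 2697 and 1465 CPM, and Mt1, a metallothionein, at 854, 63.1 and 1147. Outside the rule for named genes and chosen after their values were seen, Myh7, the fetal myosin of the mouse ventricle, was at 22.3, 1048 and 122 CPM, and Acta1, skeletal actin, at 9.98, 0 and 899. Of the 155 adult counts of Myh7, 136 came from cell D, the adult cell richest in Ankrd1. Each other adult cell had 0 to 13. The median adult cell, at 8.84 CPM, was below the median transplanted cell. So the place of Myh7 among the genes higher in adult than transplanted cells rests on adult cell D. Acta1, often used beside Nppa and Nppb as a mark of hypertrophy, had 2, 1 and 10 counts in transplanted cells A, B and G and 105 to 511 in each of adult cells C, F, G and H.

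Transcription factors known to act on these promoters were thinly covered. Of 12 measured between transplanted and cultured cells 1 was higher and 10 lower, and of 12 between adult and cultured cells 0 were higher and 9 lower, with medians of -6.11 and -2.44 against -5.63 and -3.85 over all genes. Over all genes, 22.5% were higher and 64.0% lower in transplanted than cultured cells, and 23.0% and 62.1% in adult than cultured cells. Of 9 between adult and transplanted cells 6 were higher and 3 lower, beside 44.3% and 34.8% of all genes. The median was 4.05 against 0.37. Myocd, a coactivator of smooth and cardiac muscle genes, had 76.8 CPM in transplanted, 689 in cultured and 2.36 in adult cells. Mef2a was at 0.768, 451 and 147 CPM and Mef2c at 0, 500 and 81.0 CPM. Several of these levels rest on 1 cell. All 100 transplanted counts of Myocd came from cell G. Adult cell A held 186 counts of Mef2a and adult cell F 102 of Mef2c, with 1 count of each in C and 0 in the other adult cells. The list counts and medians between adult and transplanted cells carry the same limit. Tead1 reads the M-CAT motif and was likewise named with its values in view. It had 0 counts in transplanted cells, 93 counts in 7 of 8 cultured cells (451 CPM) and 154 counts in 4 adult cells (121 CPM), of which cell A, with 1 count each of Nppb and Ankrd1, held 128. Gata4, chosen in the same way, had 5, 8 and 0 counts in transplanted, cultured and adult cells.

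Immediate early and heat shock genes, the quick response to stress and to handling, gave few counts as well. Of 14 listed genes 6 were measured between transplanted and cultured cells, 0 of them higher and 4 lower. Of 8 between adult and cultured cells 0 were higher and 5 lower, and of 5 between adult and transplanted cells 3 were higher and 2 lower. Over all genes, 22.5% were higher and 64.0% lower in the first comparison, and 23.0% and 62.1% in the second. In the third, 44.3% of all genes were higher and 34.8% lower. The median log2 ratios of the 3 comparisons were -5.09, -2.82 and 2.68, against -5.63, -3.85 and 0.37 over all genes. Fos was at 95.9, 77.6 and 38.5 CPM in transplanted, cultured and adult cells, Jun at 4.61, 131 and 72.4, and Zfp36 at 0, 252 and 0. Such levels often rest on 1 cell. All 125 Fos counts of the transplanted group came from cell D, and the adult ones were 48 in cell C and 1 in F. The Zfp36 counts of the cultured group were 50 in cell H and 2 in A.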

How the data were processed

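Cells were isolated singly by sorting or under a microscope, and their cDNA was amplified and fragmented with Tn5, per the labels' protocols. No molecular identifiers are stated, so counts are reads. The authors deposited raw counts for each gene in each cell. TopHat2 2.1.0, HTSeq, DESeq2 and the build mm10 are named, for the rat cells too, per the submitters' processing notes. The sources used here do not give the strand setting or the annotation. All columns were mapped to samples (0 not used).

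Counts were summed per group and divided by the group's total (CPM). Levels carry exact Poisson intervals and ratios exact conditional binomial ones, at 95% and for counting error only, since PCR reads are not independent molecules. A group at 0 entered a ratio with 3 counts, its floor, and the resulting ratios, given as at least a value, rest on that floor and carry no interval. No ratio was given with both groups at or under 3 counts. Ratios and lists used genes with at least 10 counts over both groups and a 2-fold threshold, and list medians a pseudocount of 1 CPM. Exon lengths came from GENCODE M21, matched for 9524 genes (99.3%), 180 of them by an older name. A RefSeq promoter was found for all 3 genes and for 7427 of 9595 in the table (77.4%).

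The 3 genes and the 12 lists were chosen with earlier results of these data known. Named genes are those 3, the 3 most abundant of each list (CPM summed over groups), and, per group and over all cells, the 5 genes with the highest Spearman correlation with Nppb or Ankrd1 among genes with at least 30 counts in at least 3 cells. Any other gene named, such as Rn45s, Gm13054, Corin or Tead1, was chosen with its values in view. The ratio script was tested on simulated data. Alternatives were other scaling of the group sums without any model (edgeR 4.0.16, TMM; DESeq2 1.42.0, size factors), equal cell weights, a total without Rn45s, Rpph1 and Ttn, other minimums, and leaving out each cell. R 4.3.3, Python 3.11.15, numpy 2.4.6, pandas 2.3.3 and scipy 1.17.1 were used.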

Additional observations from a re-analysis of the deposited data

Results flagged for a closer look

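Ankrd1 in transplanted cell B, at 1699 CPM, lay far from the other 7 transplanted cells, of which the next, G, had 439 CPM. The gap to the next cell was 0.741 of the range of the group, past the Dixon limit for 8 cells. Ankrd1 in adult cell D, at 2793 CPM, lay far from the other 7 adult cells too, with adult B next at 1159 CPM and a gap of 0.586 of the range. Chance marks about 1 in 20 groups in this way where values are normally distributed, which skewed levels with cells at 0 are not, so the rate for such data is not known here. Nppb had no such cell in either group.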

How the results depend on the processing

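Of 280 recomputed values, 6 turned direction and 40 moved, that is, a ratio left its counting interval or a bound or count changed by over 1.5 times. The other 234 did neither, and of the Spearman correlations only the sign was compared. TMM factors raised the bounds against cultured cells to 67.1 (Nppb) and 31.0 (Ankrd1) for transplanted and to 56.6 and 85.8 for adult cells, since they shift log2 ratios against cultured cells by 0.92 for all genes; DESeq2 size factors shift them by 0.22 and 0.14. With equal cell weights the adult to transplanted ratio reversed to 1.24 for Nppb and was 2.31 for Ankrd1. Without 1 cell in turn, the bound for transplanted against cultured cells ran from 22.8 to 41.8 (Nppb) and from 5.83 to 22.3 (Ankrd1), that for adult against cultured cells from 18.5 to 36.2 and from 25.1 to 54.9, and the adult to transplanted ratio from 0.520 to 1.31, above 1 without adult A (1.02), transplanted F (1.26) or H (1.31), and from 1.53 to 7.77. The Spearman correlation of Nppb and Ankrd1 in transplanted cells ran from -0.38 to 0.0204, the latter without F or without H. Transplanted cells with both genes numbered 1 from 3 counts or from 10 counts, and 1.11 at 16099 counts per cell.

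List counts changed by over 1.5 times as follows. With TMM factors, transplanted against cultured cells, 2 transcription factors and 1 immediate early gene were higher. Adult against cultured cells, 2 natriuretic processing genes, 1 transcription factor and 2 immediate early genes were higher and 1 stretch gene lower. With a minimum of 30 counts, 1 natriuretic processing gene, 5 transcription factors and 2 immediate early genes were lower in transplanted than cultured cells, 1 natriuretic and 2 immediate early genes lower in adult than cultured cells, and between adult and transplanted cells 1 natriuretic gene was higher and 1 stretch gene lower. With no minimum, 4 natriuretic genes were lower against cultured cells in both comparisons and 5 immediate early genes higher in adult than transplanted cells. Fewer or more genes were measured at these minimums. No paired analysis was possible because no result comes from a test and the letters only name cells. Depth limits the cultured cells most, with floors of 49.4 to 186 CPM in single cells.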
